A study of Mus musculus with 6 samples.

Results

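The genes described here encode the proteins of the mitochondrial ribosome whose symbols begin with Mrpl or Mrps and a digit. They were taken as every array probe whose RefSeq accession leads to such a symbol. The rule found 100 probes of 78 genes among 27234 named probes of 20659 genes on an Agilent expression array. Of these probes, 98 passed the filter on dim signal (well above background on all arrays of at least 1 group), and 96 were well above background on all 6 arrays. They give values for 77 genes, each represented by its brightest kept probe. Mrpl21 has no value because its probe was well above background on 0 control and 0 sleep fragmented arrays.

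The samples are total RNA from the ventricles of 21-week-old female C57BL/6N mice, an inbred strain. The sleep of 1 group was fragmented for 5 weeks (3 arrays), and the control group was left undisturbed (3 arrays). No transgene, drug or other agent is named for either group. The samples are not stated to come from separate animals, so each p-value reflects only how much these samples varied, and that variation may be technical. The comparison asks whether transcripts of the mitochondrial translation machinery differ in the ventricle after sustained sleep disruption.

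The mitochondrial ribosome translates the few proteins that mitochondrial DNA encodes, all of them core subunits of the respiratory chain and ATP synthase. Its RNAs come from mitochondrial DNA, while its proteins are encoded in the nucleus, made in the cytosol and imported. The large subunit forms peptide bonds and holds the exit for the nascent chain, and the small subunit reads the messenger RNA. Cardiac muscle is rich in mitochondria and depends on this machinery to renew its respiratory complexes.

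RefSeq promoter windows of assembly GRCm38.p6, from 250 bases before to 50 after the annotated start, were at hand for 69 of the 78 genes. They were searched on both strands for short cores of factors known for housekeeping and mitochondrial genes. Some genes have several windows, and a gene was counted once if any of its windows matched. The core CCGGAAG of GABPA, an ETS factor also called nuclear respiratory factor 2, was found for 26 genes (37.7%), against 12.9% of 17492 protein-coding genes. The core GCATGCG of NRF1 (nuclear respiratory factor 1) was found for 8 (11.6%), against 4.96%. The core AAGATGG of YY1 was found for 13 (18.8%), against 7.18%. At least 1 of these 3 cores was found for 38 genes (55.1%), against 22.6%. The CREB core TGACGTC was found for 4 genes (5.8% against 4.35%), and the E-box CACGTG for 5 (7.25% against 8.91%). The windows of these genes had a median GC content of 58.7%, against 56.3% for all. These matches are letters in a window and not measured binding.

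**Figure D1:**
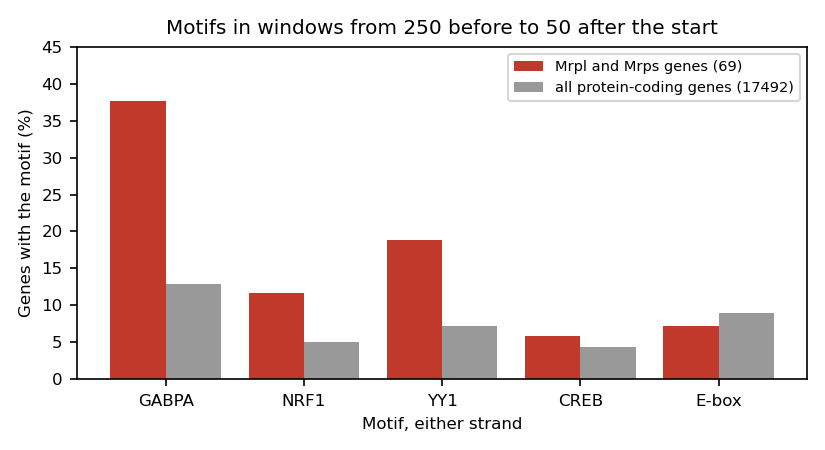
Percentage of genes (vertical axis) with each motif on either strand of a promoter window (horizontal axis), for the 69 Mrpl and Mrps genes in the table (red bars) and for 17492 protein-coding genes (grey bars). The GABPA core was found for 37.7% of the Mrpl and Mrps genes and for 12.9% of all genes.

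The next sequences are the 200 bases before the start of 5 genes that recur in the results, 5′ to 3′ on the gene's strand, with every match to the 5 motifs in capitals. Mrps24 (chr11:5707702-5707901, minus strand) had the smallest p of the 77 genes. Mrpl36 (chr13:73330809-73331008, plus strand) had the most negative fold change. Mrpl22 (chr11:58171464-58171663, plus strand) was among the genes closest to the family's pattern over arrays, and Mrpl32 (chr13:14613038-14613237, minus strand) among those furthest from it. Mrps11 (chr7:78782931-78783130, plus strand) starts 42 bases from Mrpl46, on opposite strands. An NRF1 core reads almost as a palindrome, so both strands can match over the same bases.
Mrps24: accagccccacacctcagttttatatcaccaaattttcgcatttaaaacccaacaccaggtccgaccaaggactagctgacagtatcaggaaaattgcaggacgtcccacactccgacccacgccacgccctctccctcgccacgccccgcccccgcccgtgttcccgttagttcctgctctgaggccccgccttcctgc
Mrpl36: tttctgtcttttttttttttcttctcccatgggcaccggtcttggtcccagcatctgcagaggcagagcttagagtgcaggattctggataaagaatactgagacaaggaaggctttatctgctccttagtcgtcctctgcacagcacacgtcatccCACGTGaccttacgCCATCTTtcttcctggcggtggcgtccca
Mrpl22: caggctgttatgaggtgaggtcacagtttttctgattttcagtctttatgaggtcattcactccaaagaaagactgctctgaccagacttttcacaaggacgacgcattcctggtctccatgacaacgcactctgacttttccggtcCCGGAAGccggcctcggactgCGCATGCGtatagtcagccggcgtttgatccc
Mrpl32: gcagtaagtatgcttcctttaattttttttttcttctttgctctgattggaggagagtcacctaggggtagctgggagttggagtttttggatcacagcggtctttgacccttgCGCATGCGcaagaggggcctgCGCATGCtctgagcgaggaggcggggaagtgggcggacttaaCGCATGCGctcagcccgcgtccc
Mrps11: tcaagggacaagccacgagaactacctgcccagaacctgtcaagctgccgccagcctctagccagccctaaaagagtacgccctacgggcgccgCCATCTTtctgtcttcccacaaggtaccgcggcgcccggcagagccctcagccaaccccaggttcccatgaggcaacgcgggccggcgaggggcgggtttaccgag
Mrps24 has no capitals, Mrpl36 has an E-box and a YY1 core, Mrpl22 a GABPA core beside an NRF1 core, Mrpl32 several NRF1 cores, and Mrps11 a YY1 core. Among the measured genes of the family, the median log2 fold change was -0.10 for those with a GABPA core in their window and -0.12 for those without. It was -0.15 with and -0.11 without an NRF1 core, -0.06 with and -0.11 without a YY1 core, -0.02 with and -0.12 without a CREB core, and -0.14 with and -0.11 without an E-box. These differences were not tested.

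Per array, 59.2% to 72.6% of 39429 probes gave a signal well above background. Sleep fragmented replicate 1 had the lowest share and the weakest signal (75th percentile 123, other arrays 204 to 252). The scanner read the sleep fragmented arrays in 1 run and the controls in another, so scan and group cannot be told apart for any difference below. Over all 25219 kept probes, 0 passed an adjusted p of 0.05 (limma with Benjamini-Hochberg adjustment), and 735 had an unadjusted p under 0.05. Levels below are log2 of the processed signal minus the array's 75th percentile, unless quantile scaling, which gives all arrays 1 distribution, is named. Levels of different genes come from different probes and are not compared.

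No mitochondrial ribosomal protein gene passed the test. By limma, 0 of 77 had an adjusted p under 0.05 (0.0% of 14548 named genes did), and the smallest was 0.938. At an unadjusted p under 0.05, 0 were higher (1.84% of all named genes) and 0 were lower (1.13%). Quantile scaling also gave 0 by adjusted p (0.0% of all), 0 higher (1.2%) and 0 lower (2.34%). Their log2 fold changes, sleep fragmented over control, lay between -0.29 and 0.14, and 0 were beyond 1.5-fold, against 3.62% of all named genes. With quantile scaling the range was -0.23 to 0.15, and again 0 were beyond 1.5-fold (2.63% of all).

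Most of the fold changes were small and negative. With 75th percentile scaling 64 of 77 (83.1%) were below 0, against 41.3% of all named genes. Their median was -0.11, and that of all named genes was 0.05, a difference of -0.16. With quantile scaling 59 of 77 (76.6%) were below 0, against 50.4%, and the difference of medians was -0.07. Median scaling moves the median of all named genes to -0.16. It shifts every gene equally, so it cannot change the difference of medians. In bulk ventricle, fewer cells of a type and less RNA per cell cannot be told apart.

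The intervals show what sizes the 6 arrays could resolve. The 95% interval of a fold change had a median half-width of 0.43 log2 units (1.35-fold). It lay wholly within 1.5-fold either way for 48 of 77 genes (62.3%, against 36.0% of all named genes) and within 2-fold for all 77. With quantile scaling, 70 of 77 (90.9%, against 55.3%) lay within 1.5-fold. The median SD within a group was 0.18, against 0.26 for all named genes, and the corresponding values with quantile scaling were 0.17 and 0.22.

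**Figure D2:**
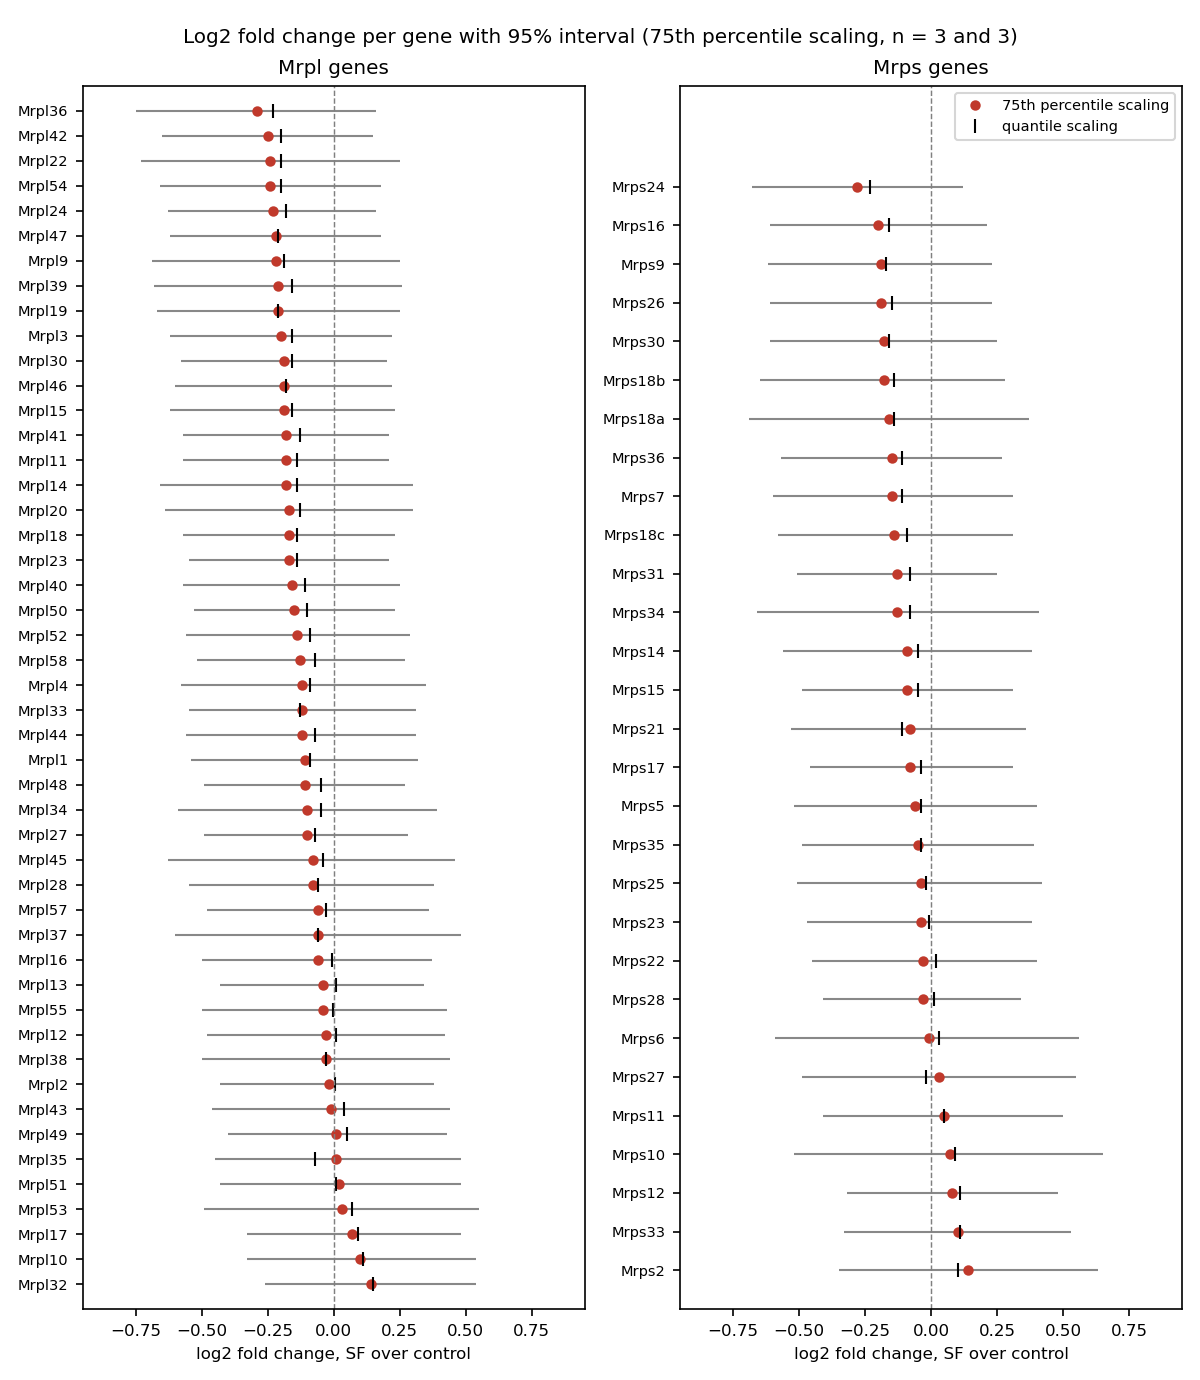
Log2 fold change, sleep fragmented over control (horizontal axis), of each Mrpl gene (left) and Mrps gene (right). Red points are fold changes with 75th percentile scaling, grey lines their 95% intervals, and black ticks the fold changes with quantile scaling (3 arrays per group). All intervals cover 0, and 64 of 77 points lie below 0.

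The smallest p belonged to Mrps24, a small subunit protein with a bacterial counterpart. Its level was 2.95, 2.77 and 2.90 on sleep fragmented replicates 1, 2 and 3, and 3.07, 3.32 and 3.06 on the controls. Every sleep fragmented array was below every control. The log2 fold change was -0.28 ± 0.18 (SE, n = 3 and 3, limma adjusted p = 0.938), and it was -0.23 with quantile scaling (limma adjusted p = 0.997). Mrpl36, a small zinc-binding protein of the large subunit, read 2.91, 2.51 and 2.88 after sleep fragmentation and 3.21, 2.82 and 3.14 in controls. Both groups were lowest on replicate 2, and they overlapped. The log2 fold change was -0.29 ± 0.20 (SE, n = 3 and 3, limma adjusted p = 0.938).

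The other genes with the smallest p on the lower side were all of the large subunit. Mrpl42, which has no bacterial counterpart, read 3.05, 2.74 and 2.90 against 3.11, 3.24 and 3.09 in controls, without overlap (-0.25 ± 0.18). Mrpl24, which lies near the peptide exit, read 3.26, 3.14 and 3.31 against 3.37, 3.61 and 3.44, also without overlap (-0.23 ± 0.17). In Mrpl54 the groups overlapped, with 2.55, 2.17 and 2.32 against 2.48, 2.59 and 2.70 (-0.24 ± 0.18). Mrpl47, also near the exit, read 0.86, 0.65 and 0.86 against 0.88, 1.09 and 1.06 (-0.22 ± 0.18). Its other kept probe gave 0.28 ± 0.27, so its sign rests on the probe.

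On the higher side the fold changes were smaller. Mrpl32, a large subunit protein that is cleaved by a mitochondrial protease before it is assembled, read 1.1, 0.78 and 1.00 after sleep fragmentation and 0.80, 0.83 and 0.83 in controls. Replicates 1 and 3 were above all controls and replicate 2 was below them. The log2 fold change was 0.14 ± 0.18 (SE, n = 3 and 3, limma adjusted p = 0.94). Mrps2, of the small subunit, had 0.14 ± 0.22. Mrps33, a mitochondria-specific small subunit protein, had 0.10 ± 0.19 from its brightest probe and -0.16 from its other. Mrpl17 had 0.07 ± 0.18.

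**Figure D3:**
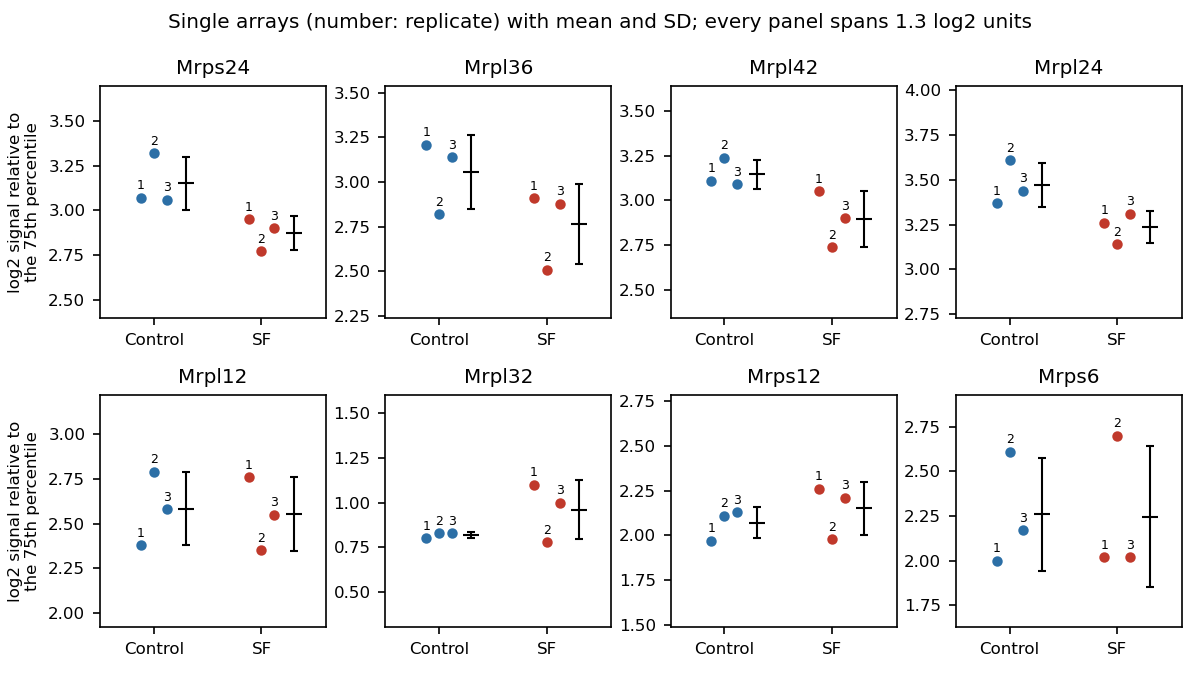
Level (log2 signal relative to the array's 75th percentile, vertical axis) of 8 genes on each array, with the replicate number above each point, controls in blue, sleep fragmented (SF) in red, and the mean with SD beside them. Every panel spans 1.3 log2 units. The groups are apart in Mrps24, Mrpl42 and Mrpl24, and they overlap in the other 5.

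The stalk of the large subunit, which recruits translation factors, showed no common direction. Mrpl12, the stalk protein itself, read 2.76, 2.35 and 2.55 after sleep fragmentation and 2.38, 2.79 and 2.58 in controls. The groups spanned nearly the same range (-0.03 ± 0.20). Mrpl10, which anchors the stalk, had 0.10 ± 0.19. Mrpl11, at the base of the stalk, read 3.97, 3.71 and 3.83 against 4.01, 4.04 and 3.99, without overlap (-0.18 ± 0.17).

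Around the exit for the nascent chain, Mrpl23 read 4.39, 4.20 and 4.28 after sleep fragmentation and 4.49, 4.49 and 4.40 in controls. The groups were apart, by -0.17 ± 0.17. Mrpl44 had -0.12 ± 0.19. Mrpl45, which helps tie the ribosome to the inner membrane, had -0.08 ± 0.24, with 3.67, 3.06 and 3.50 against 3.78, 3.14 and 3.57. Its replicates 2 were the lowest array of either group. Mrps30, which carries a small subunit name but sits in the large subunit, had -0.18 ± 0.19.

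In the small subunit, Mrps12, at the decoding centre, read 2.26, 1.98 and 2.21 after sleep fragmentation and 1.97, 2.11 and 2.13 in controls. The groups overlapped (0.08 ± 0.18). Mrps5 had -0.06 ± 0.20, and Mrps22 and Mrps27 had -0.03 ± 0.19 and 0.03 ± 0.23. Mrps34 had -0.13 ± 0.24. The 3 paralogs Mrps18a, Mrps18b and Mrps18c are related to 1 bacterial protein, and Mrps18a sits in the large subunit despite its name. They had -0.16, -0.18 and -0.14, and the other kept probe of Mrps18b gave 0.15 ± 0.24. Mrps18a stood out by array, since its controls read 1.34, 1.34 and 1.32 while sleep fragmented replicate 2 read 0.67 and the other two 1.38 and 1.46.

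Mrps36 carries the name but is a component of the 2-oxoglutarate dehydrogenase complex of the citric acid cycle. It read 3.75, 3.45 and 3.69 against 3.83, 3.59 and 3.91 in controls (-0.15 ± 0.19). Its fold change lay inside the range of the ribosomal proteins.

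By subunit, 43 of 50 large subunit genes and 20 of 26 small subunit genes had a fold change below 0, with medians of -0.12 and -0.07. With quantile scaling the counts were 40 and 18 and the medians -0.09 and -0.04. Genes with a bacterial counterpart (47) and mitochondria-specific genes (29) both had a median of -0.11, and with quantile scaling -0.09 and -0.06. No difference between these subgroups was tested.

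In 11 of 77 genes (14.3%) every sleep fragmented array was below every control, against 3.97% of all named genes. These were Mrpl11, Mrpl23, Mrpl24, Mrpl30, Mrpl41, Mrpl42, Mrpl47, Mrpl50, Mrps16, Mrps24 and Mrps31. In 0 genes was every sleep fragmented array above every control (3.64% of all). With quantile scaling 9 were apart on the lower side (11.7%, against 4.98%) and 0 on the higher (3.26%). That set keeps Mrpl11, Mrpl23, Mrpl24, Mrpl30, Mrpl41, Mrpl42, Mrpl50 and Mrps24 and adds Mrpl18. The genes move together between arrays, so these counts are not counts of independent genes.

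The genes of the family varied together from array to array. Relative to the control mean and to the median of all named genes, their median was -0.06, -0.29 and -0.12 on sleep fragmented replicates 1, 2 and 3, and -0.04, 0.11 and -0.03 on the controls. On sleep fragmented replicate 2, 76 of 77 genes lay below the median of all genes. On control replicate 2, 25 of 77 did, the fewest of the 6 arrays. With quantile scaling the medians were 0.03, -0.19 and -0.03 after sleep fragmentation and -0.06, 0.03 and 0.05 in controls. Sleep fragmented replicate 2 was the lowest array under both scalings, and under quantile scaling the other two sleep fragmented arrays lay within the range of the controls.

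**Figure D4:**
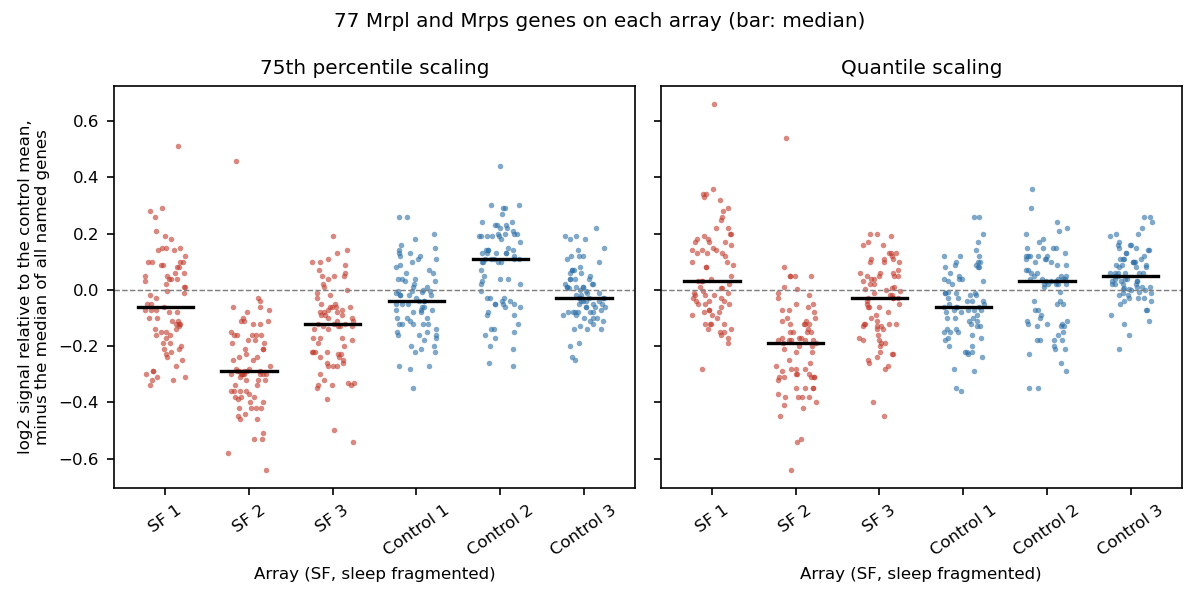
Log2 signal of 77 Mrpl and Mrps genes on each array, relative to the control mean and minus the median of all named genes (vertical axis), with 75th percentile scaling (left) and quantile scaling (right). Points are genes and bars medians. Sleep fragmented (SF) replicate 2 has the lowest median in both panels (-0.29 and -0.19).

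Without sleep fragmented replicate 2, the median fold change of the family minus that of all named genes was -0.08 with 75th percentile scaling and 0.0092 with quantile scaling. Then 40 and 39 of 77 fold changes were below 0, and 53 and 38 were below the median of all named genes (0.07 and -0.0098). In that set of 5 arrays 12 genes were apart on the lower side (7.82% of all named genes were) and 6 on the higher (13.0%) with 75th percentile scaling. Leaving out any other single array gave differences between -0.22 and -0.13 with 75th percentile scaling. With quantile scaling they lay between -0.12 and -0.04, the last without control replicate 3. Same-numbered arrays of both groups also share a barcode value in the file headers, and what that value marks was not established. Within replicate numbers 1, 2 and 3 the difference was -0.06, -0.39 and -0.07 with 75th percentile scaling, and 0.05, -0.21 and -0.08 with quantile scaling.

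Markers of other cells also differed between arrays. Their list means are given relative to the control mean and the median of all named genes, with 75th percentile scaling. The 5 of 6 atrial cardiomyocyte markers with a value (Sln has none) stood at -1.44, 3.20 and 0.11 on sleep fragmented replicates 1, 2 and 3, and at -1.86, 2.06 and -0.18 on the controls. The 4 of 7 adipocyte markers (Plin1, Cidec and Lep have none) stood at -1.07, 2.28 and -0.65, and at -1.51, 1.69 and -0.15. Both list means were thus highest on replicate 2 of either group. On these arrays the ribosomal protein genes were lowest in 1 group and, with 75th percentile scaling, highest in the other. The markers Bmp10 and Fabp4 departed from these atrial and adipocyte lists. Bmp10 read -2.36, -3.0 and -2.34 on control replicates 1, 2 and 3, and Fabp4 6.17, 6.04 and 6.18. Fabp4 read 6.87, 6.08 and 6.02 on the sleep fragmented arrays. All 5 fibroblast markers had a value, and their means of 0.36, 0.66 and 0.0016, against 0.12, -0.04 and -0.06, were highest on sleep fragmented replicate 2. Tcf21 departed from that list, with -0.71, -1.05 and -1.25 against -1.31, -1.65 and -1.13, and the other fibroblast markers were highest on that array. The 5 of 6 macrophage markers stood at 0.16, 0.46 and -0.24, against -0.23, 0.33 and -0.07. Of the sleep fragmented arrays, Csf1r, Adgre1 and C1qa were highest on replicate 2, but C1qb and Lyz2 on replicate 1. The 5 of 6 lymphocyte markers stood at -0.19, -0.43 and -0.62, against -0.88, 1.33 and -0.42. Of the controls, Jchain, Cd79b and Cd3d were highest on replicate 2. Cd3e was lowest there, at 0.01, -0.44 and -0.15, and Cd79a was not the highest there. The mean of the 6 erythroid markers with a value was higher on all sleep fragmented arrays, at 2.03, 0.98 and 0.48, against -0.15, 0.18 and 0.0013. By gene, the groups were apart on the higher side in 4 of them (3.64% of all named genes were) and overlapped in Hba-a2 and Slc4a1. With quantile scaling they were apart in 5 of 6 (3.26% of all). All 10 ventricular cardiomyocyte markers of the labelled tissue had a value, with means of 0.41, -0.17 and -0.03 against 0.05, -0.07 and 0.04. The high value on sleep fragmented replicate 1 depended on the scaling. The median of that list there was 0.55 with 75th percentile scaling and -0.05 with quantile scaling. The part of these markers in the lower values of the family was not tested.

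The median correlation over 2926 pairs of the 77 genes, across the 6 arrays, was 0.58. It was 0.06 over pairs of all named genes, 0.79 among nuclear oxidative phosphorylation subunits and 0.63 among cytosolic ribosomal proteins. The arrays share their scans and depth with every pair, so these values are a description. Mrpl36 (r = 0.97), Mrpl22 (0.96) and Mrps26 (0.95) came closest to the family's median pattern, and 59 of 77 genes had an r above 0.5. That pattern is the median of these same genes, so a high r is partly built in. No such count was made for all named genes. The least alike were Mrps6 (-0.64), Mrpl32 (0.17) and Mrpl51 (0.21), and Mrps6 was the 1 gene below 0.

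Mrps6, of the small subunit, read 2.02, 2.70 and 2.02 after sleep fragmentation and 2.00, 2.61 and 2.17 in controls (-0.01 ± 0.25). It was highest on replicate 2 of both groups, the arrays with the highest means of the atrial and adipocyte marker lists. Slc5a3, the myo-inositol transporter gene that overlaps Mrps6 in the gene table, read -1.96, -0.22 and -1.45 against -1.75, -1.26 and -2.09 (0.49 ± 0.41). It too was highest on replicate 2 of each group.

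Some of the genes share a start region with a neighbour on the other strand. Of the 69 in the promoter table, 27 have such a start within 1000 bases. Mrpl46 and Mrps11 had fold changes of -0.19 and 0.05, with a correlation over 6 arrays of 0.03. Mrps12 and Sars2, the mitochondrial seryl-tRNA synthetase gene, start 147 bases apart and had 0.08 and 0.34 ± 0.30 (r = 0.51). Mrpl43 and Twnk, the mitochondrial DNA helicase gene, start 116 bases apart and had -0.01 and 0.33 ± 0.24 (r = 0.76). Mrpl27 had -0.10 and Eme1, a nuclease subunit gene 48 bases away, 0.73 ± 0.29 (r = -0.34). Eme1 was dim, at -2.02, -2.85 and -2.82 after sleep fragmentation and -3.57, -3.46 and -2.85 in controls. The dimmest quartile of named genes had a median of 0.25 with 75th percentile scaling and 0.02 with quantile scaling. Mrpl30 had -0.19 and Mitd1, 66 bases away, -0.42 ± 0.24 (r = 0.29). Mrpl37 had -0.06 and Cyb5rl, 128 bases away, -0.27 ± 0.18 (r = 0.59). The correlation was highest for Mrpl14 with Tmem63b (0.90) and Mrps27 with Ptcd2 (0.88), and lowest for Mrpl51 with Ncapd2 (-0.68).

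Several probes were kept for 21 of the 77 genes, and in 7 of these the probes had opposite signs. These were Mrpl4, Mrpl41, Mrpl47, Mrpl49, Mrps18b, Mrps26 and Mrps33. The widest gap was the 0.50 of Mrpl47. Mrpl39 had the smallest p of any single probe, from its dimmer one, well above background on 3 control and 2 sleep fragmented arrays (-0.65 ± 0.26). It was the 1 kept probe of the family with an unadjusted limma p under 0.05. Its brighter probe gave -0.21 ± 0.21. Brightness is uneven in this family: 58 of the 77 genes lay in the brightest quartile of named genes, 16 in the next, 3 in the one below and 0 in the dimmest. The median fold change of all genes in those quartiles, from brightest to dimmest, was -0.05, -0.02, 0.11 and 0.25 with 75th percentile scaling. In the brightest quartile the family's median was -0.12, and 42 of its 58 genes were below that quartile's median. With quantile scaling the corresponding medians of that quartile were -0.08 for the family and -0.02 for all.

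The rest of the mitochondrial translation pathway had no adjusted call either (0 in each list, limma adjusted p at least 0.938). The 5 mitoribosomal proteins without an Mrp symbol had a median of -0.14, with 4 of 5 below 0. Dap3, a GTP-binding protein of the small subunit, read 4.74, 4.73 and 4.90 against 4.95, 5.04 and 5.00 in controls, without overlap (-0.21 ± 0.17). It was the 1 of 5 apart on the lower side (3.97% of all named genes were), and with quantile scaling 0 of 5 were (4.98%). Chchd1 and Aurkaip1, also of the small subunit, had -0.18 and -0.14.

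Of 22 measured assembly and ribosomal RNA factors, 15 were below 0, with a median of -0.07. Mterf3, a factor for assembly of the large subunit, had -0.32 ± 0.18, and the GTPases Mtg1 and Noa1 had -0.27 ± 0.17 and -0.29 ± 0.18. These had the smallest p of the list. In all 3 the groups were apart, and they were the only 3 of 22 apart on the lower side (3.97% of all named genes were). With quantile scaling 3 of 22 were (4.98% of all). On the higher side, Mpv17l2 and Mrm2, named after their values were seen, had 0.35 ± 0.22 and 0.34 ± 0.29 with overlap, and 0.16 and 0.10 with quantile scaling. Of 16 translation factors 10 were below 0 (median -0.11), led by the ribosome recycling factors Mrrf (-0.27 ± 0.19) and Gfm2 (-0.24 ± 0.18) and the release factor Mtrf1 (-0.28 ± 0.21). Of 21 mitochondrial tRNA synthetases 14 were below 0 (median -0.05). Rars2, for arginine, had -0.50 ± 0.26 and was the 1 of 21 with the groups apart on the lower side (3.97% of all). With quantile scaling 2 of 21 were (4.98%). Wars2, for tryptophan, had 0.37 ± 0.25 and Fars2, for phenylalanine, -0.24 ± 0.18. With quantile scaling these were 0.16 and -0.20.

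Genes of mitochondrial transcription and RNA handling had 16 of 23 below 0 (median -0.13), with 1 lower (1.13% of all named genes) and 0 higher (1.84%) at an unadjusted p under 0.05. With quantile scaling 20 of 23 were below 0 (median -0.13) and 2, Mterf1b and Mterf1a, were lower at that threshold (2.34% of all). The 1 gene with 75th percentile scaling was Mterf1b, a transcription termination factor, with 2.74, 1.82 and 2.55 against 2.89, 3.08 and 2.99 (-0.61 ± 0.25, limma adjusted p = 0.938). Its near copy Mterf1a had -0.52 ± 0.25, and the probes may not tell the copies apart. Mterf2 had -0.25 ± 0.18. Of 10 genes of mitochondrial DNA upkeep 8 were below 0 (median -0.10), and 1 was lower at an unadjusted p under 0.05 (1.13% of all named genes). With quantile scaling 7 of 10 were below 0, the median was -0.20, and 2, Mgme1 and Polg, were lower at that threshold (2.34% of all). Mgme1, an exonuclease of mitochondrial DNA replication, read 0.57, 0.81 and 1.08 against 1.71, 1.34 and 1.29 (-0.63 ± 0.21, limma adjusted p = 0.938). The DNA polymerase gene Polg had -0.36 ± 0.20, and -0.50 with quantile scaling. Dguok, a kinase that supplies nucleotides for mitochondrial DNA, had -0.27 ± 0.17.

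Of 10 transcription regulators of nuclear genes for mitochondria, 7 were below 0 (median -0.10). Of the factors whose cores were counted above, Nrf1 had -0.38 ± 0.23, Gabpa -0.24 ± 0.21 and Yy1 -0.07 ± 0.21. The coactivator gene Pprc1 had 0.22 ± 0.24, and -3.3e-05 with quantile scaling. None had an unadjusted p under 0.05, and their groups overlapped. Of 12 mitochondrial proteases and chaperones 11 were below 0 (median -0.09). Spg7, a subunit of the protease that cleaves the Mrpl32 protein, had -0.26 ± 0.19, and Clpx and Hspa9, both chaperones, had -0.21 each.

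**Figure D5:**
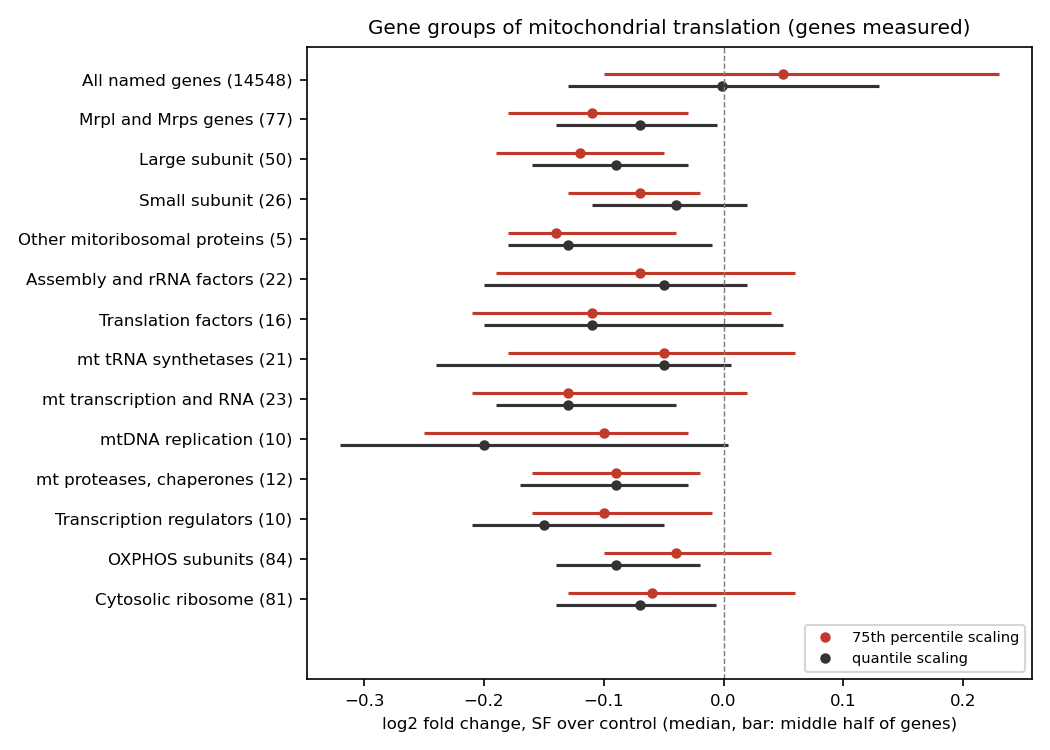
Median log2 fold change, sleep fragmented over control (points, horizontal axis), and the middle 50% of genes (bars) for each gene group, with the number of genes measured in brackets. Red is 75th percentile scaling and black is quantile scaling. All groups except all named genes have a median below 0 under both scalings.

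In the families most like this one, 0 genes had an adjusted limma p under 0.05 (0.0% of all named genes). With quantile scaling 9 of 84 oxidative phosphorylation genes were apart on the lower side, beside 9 of 77 here (4.98% of all). With 75th percentile scaling 0 of 84 were, beside 11 of 77 (3.97%). For the cytosolic ribosome these counts were 2 and 0 of 81. The 84 nuclear oxidative phosphorylation subunits, which are built around the products of mitochondrial translation, had a median of -0.04 with 75th percentile scaling and -0.09 with quantile scaling, and 54 and 71 of them were below 0. The 81 cytosolic ribosomal proteins had medians of -0.06 and -0.07. The gap between the mitochondrial ribosomal genes and the oxidative phosphorylation subunits thus changed sides with the scaling (-0.11 against -0.04, and -0.07 against -0.09). Relative to all named genes with 75th percentile scaling, the oxidative phosphorylation subunits stood at 0.18, -0.25 and -0.17 on sleep fragmented replicates 1, 2 and 3, beside -0.06, -0.29 and -0.12 for the mitochondrial ribosomal genes. With quantile scaling these were -0.02, -0.13 and -0.09 beside 0.03, -0.19 and -0.03. The cytosolic ribosomal proteins stood at 0.11, -0.06 and -0.35, and with quantile scaling at -0.02, 0.07 and -0.26, lowest on replicate 3 under both. No difference between the families was tested.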

How the data were processed

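RNA was labelled with Cy3 and hybridised 1 sample per array, per the labels' protocols. The deposited intensity values are processed, background-subtracted signals on a linear scale, made with Agilent Feature Extraction 11.0.1.1 per the file headers. Version 10.5.1.1 is named in the submitters' processing notes instead. A deposited table of log2 values by the authors, made in a way not given in the sources used here, served as an alternative. Its median was 5.54 on every array, and its fold changes were nearly those of quantile normalization. It therefore adds little beside that scaling. The deposited flags for background and outliers are other values, 0 or 1. Control and outlier spots were left out, spots of a probe were averaged, and log2 signals minus each array's 75th percentile were fitted with limma 3.58.1 in R 4.3.3 (two-sided), with quantile normalization beside it. Of 39429 probes 25219 were kept and adjusted over. The script was tested on simulated data. Names come from a RefSeq table of GRCm38.p6 (27234 probes matched). The number of arrays limits the precision. Named genes are the 6 smallest p per direction relative to the median of all named genes under each scaling, genes picked by role, 3 per pathway list, and those most and least like the family's pattern. Alternatives covered scaling, background, filter, probes, variance model, weights, block and single arrays. The members, lists and rules were chosen with earlier results of these data known.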

Additional observations from a re-analysis of the deposited data

How the results depend on the processing

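In every alternative tried 0 of the 77 genes had an adjusted limma p under 0.05, with a smallest adjusted p of 0.128, under array weights. At an unadjusted p under 0.05, 2 genes were lower with median scaling (4.28% of all named genes), 3 with normexp background correction (2.25%) and 6 with array weights (6.49%), against 0 in the values reported. The median of the family minus that of all named genes lay between -0.22 and -0.08 when single arrays were left out. With quantile normalization it was 0.0092 without sleep fragmented replicate 2 and -0.04 without control replicate 3, alternatives chosen after seeing the data. Same-numbered arrays of both groups correlated by 0.06, 0.55 and 0.21, and differently numbered ones by -0.50 to 0.36. These few values cannot decide whether the numbers pair the arrays, and the main fit did not pair them. A fit with the replicate number as a block gave a median difference of -0.16 and 0 calls. Of 30 named genes, 17 kept their side of the median of all named genes in all 16 alternatives run for single genes, and 13 crossed it in at least 1. Those values, as log2 fold change minus that median, were as follows. Quantile normalization and the authors' values each gave 0.02 for Mrpl12, 0.01 for Mrpl51, 0.02 for Mrps22 and 0.04 for Mrps6. Normexp gave -0.0026 for Mrpl10, -0.08 for Mrpl17, -0.01 for Mrps12 and -0.07 for Mrps33, and no filter gave -0.03, -0.05, -0.05 and -0.03. Array weights gave 0.09 for Mrpl12, 0.18 for Mrpl51, 0.19 for Mrps27, -0.0037 for Mrps33 and 0.22 for Mrps5, and the mean of a gene's probes gave -0.09 for Mrps33. With single arrays left out the ranges were -0.003 to 0.15 for Mrpl10, -0.20 to 0.07 for Mrpl12, -0.04 to 0.10 for Mrpl17, -0.27 to 0.02 for Mrpl45, -0.17 to 0.09 for Mrpl51, -0.04 to 0.09 for Mrps12, -0.34 to 0.02 for Mrps18a, -0.01 to 0.20 for Mrps2, -0.13 to 0.17 for Mrps27, -0.08 to 0.14 for Mrps33 and -0.31 to 0.16 for Mrps6. The cause of these shifts was not tested.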

Other observations

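Array weights, which limma estimates from how well each array fits the model, ranged from 0.345 for control replicate 2 to 5.81 for control replicate 1, and sleep fragmented replicate 2 had 0.511. The 6 genes of the family lower at an unadjusted p under 0.05 under those weights were Mrpl18, Mrps16, Mrpl20, Mrpl36, Mrpl22 and Mrpl19.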
